A study of Mus musculus with 20 samples.

Results

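The transcription factor p53 switches on a set of genes when cells are damaged or stressed, and 10 of its best known targets are described here across cultures of chondrocytes, the cells of cartilage, from mouse joints. They were taken by gene name from a table of 54532 genes: Cdkn1a, Mdm2, Ccng1, Sesn1, Bax, Trp53inp1, Phlda3, Zmat3, Btg2 and Eda2r. RNA was sequenced after 48 hours in culture with one of 3 compounds or their solvent, in 5 libraries per group and 20 in all. One group received 25-hydroxycholesterol (25HC, 20 µM), an oxidised cholesterol, and another its 3-sulfate (25HC3S, 20 µM). GW3965 (2 µM), a synthetic compound that activates the liver X receptors (LXR), was given to another group, and Vehicle received DMSO. All cells came from mice aged 6 weeks, of a strain, sex and genotype not stated in the labels. The labels do not say whether libraries of a group stem from different animals or cultures, so the p-values below measure the spread between libraries, which may be technical.

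In unstressed cells p53 is held low by Mdm2, a ubiquitin ligase that marks it for breakdown and is itself a p53 target, so that the pathway brakes itself. Once stabilised, p53 binds DNA and raises genes that stop the cell cycle (Cdkn1a, which encodes p21, and Btg2), start cell death (Bax, Eda2r) or restrain growth signalling (Sesn1, Phlda3). Others act back on p53 or work on RNA (Ccng1, Trp53inp1, Zmat3). In cartilage, p53 and p21 are widely studied as marks of stressed and senescent chondrocytes.

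Binding of p53 rests on pairs of a 10-base element, the p53 half-site. The 250 bases upstream of each RefSeq start (build GRCm38.p6) were searched for exact matches to its consensus, which reads the same on both strands. RefSeq windows were matched for 8 of the 10 genes, all but Trp53inp1 and Zmat3, with 10 windows, as Cdkn1a and Sesn1 are listed with a second start downstream; 5 of the 8 genes held a half-site. Of the 10 windows 5 held one, or 50%, against 7.13% of all 32851 windows of the same length. The stretches below were picked because they carry a match, so they share this element by choice. They are written 5′ to 3′ on the gene's strand with the half-site in capitals.

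Cdkn1a, chr17:29090881-29090962, plus strand, between genes: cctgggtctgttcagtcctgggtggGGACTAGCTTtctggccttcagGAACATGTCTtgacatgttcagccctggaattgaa
Mdm2, chr10:117710910-117710969, minus strand, between genes: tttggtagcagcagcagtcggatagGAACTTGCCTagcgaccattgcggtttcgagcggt
Ccng1, chr11:40755437-40755496, minus strand, between genes: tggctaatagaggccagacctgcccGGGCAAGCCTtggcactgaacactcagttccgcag
Sesn1, chr10:41887241-41887300, plus strand, in an intron of Sesn1: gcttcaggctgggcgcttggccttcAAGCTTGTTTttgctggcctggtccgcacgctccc
Bax, chr7:45467065-45467124, minus strand, in an intron of Gm45808: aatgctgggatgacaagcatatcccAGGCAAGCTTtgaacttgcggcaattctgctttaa

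Cdkn1a was the one gene of the 5 with 2 exact matches, which begin 73 and 51 bases before the upstream RefSeq start and lie 12 bases apart. Near matches, such as tgacatgttc directly after the second, were not counted. In Mdm2, Ccng1 and Bax the half-site begins 186, 185 and 201 bases before the start. In Sesn1 it lies 173 bases before the second, downstream start. No match was found in the windows of Phlda3, Btg2 and Eda2r, which says only that these letters are not there. A match describes the sequence and was not tested as a binding site.

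The 10 genes lie on 8 chromosomes of build GRCm38, whose annotation gives each the same start and end as the deposited table. They are Cdkn1a (chr17:29090976-29100727), Mdm2 (chr10:117688875-117710758), Ccng1 (chr11:40748552-40755311), Sesn1 (chr10:41809935-41908424) and Bax (chr7:45461697-45466898). The others are Trp53inp1 (chr4:11156431-11174379), Phlda3 (chr1:135766119-135769136), Zmat3 (chr3:32334792-32366014), Btg2 (chr1:134075170-134079120) and Eda2r (chrX:97333840-97377216). Cdkn1a overlaps AC167363.2, a gene on the opposite strand with up to 6.50 FPKM, and the strand setting of the counting is not given, so reads of the overlap cannot be told apart. Sesn1 overlaps 9930024M15Rik, which reached 0.321 FPKM, and Bax overlaps Gm45808, which is listed at 0.

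Levels are in FPKM, the fragments of a gene per kilobase of its length after scaling to library depth. Libraries held 14653777 to 19365220 fragments in genes. Of the 10 genes, Btg2 had the fewest fragments in a library (164) and Ccng1 the most (10870). Differences are on the log2(FPKM + 1) scale with standard errors and p-values from limma, fitted over the 12752 genes that reached 1 FPKM in at least 5 libraries and adjusted over all of them by Benjamini-Hochberg. Calls were made at an adjusted p below 0.05, and all 10 genes entered the test. In bulk RNA, fewer cells of a type and less RNA per cell cannot be told apart.

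The libraries were not alike within groups. In Vehicle replicates 2, 3 and 4 and 25HC3S replicate 1, 237 to 1171 genes had exactly 1 fragment, against 1808 to 2057 in the other 16, and mitochondrial genes took 0.369% to 4.07% of fragments, against 0.889% to 1.41%. Summed chondrocyte markers ranged from 3615 to 3963 FPKM in 25HC, 2386 to 3660 in 25HC3S, 3818 to 4732 in GW3965 and 1719 to 5026 in Vehicle. Markers of endothelium, skeletal muscle and erythroid cells summed to at most 4.98, 6.60 and 0.182 FPKM in a library. Summed markers of synovium and fibroblasts ranged from 4389 to 5122 FPKM in 25HC, 4032 to 4248 in 25HC3S, 4034 to 4823 in GW3965 and 3441 to 8150 in Vehicle. Calls of the 10 genes are therefore counted with and without these 4 libraries, and without them Vehicle rests on replicates 1 and 5.

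The p53 target genes differed in the 4 libraries in both directions, some far and some no more than most genes. Ccng1, a cyclin that recruits a phosphatase to Mdm2, reached 141 FPKM in 25HC3S replicate 1 and 105, 207 and 173 FPKM in Vehicle replicates 2, 3 and 4, against 70.3 to 91.3 FPKM in the other 16. Bax, which opens pores in the mitochondrial membrane during apoptosis, had 23.9 FPKM in 25HC3S replicate 1 and 45.6, 15.1 and 19.9 FPKM in those Vehicle libraries, against 48.3 to 63.3 FPKM in the others. The 2 genes thus separated the same libraries in opposite ways. Relative to the remaining libraries of its group, Ccng1 differed by 0.89 in 25HC3S replicate 1 and by 0.52, 1.50 and 1.24 in Vehicle replicates 2, 3 and 4 (log2). Bax differed by -1.07 in 25HC3S replicate 1 and by -0.26, -1.80 and -1.42 in those Vehicle libraries. Between 4.73% and 15.3% of all genes lay further from 0 than Ccng1 in a library, and between 2.55% and 43.1% lay further than Bax. Trp53inp1, Zmat3 and Mdm2 had the sign of Ccng1 in all 4 libraries, and Cdkn1a, Btg2 and Sesn1 had that of Bax. Sesn1 differed by only -0.01 in Vehicle replicate 2. Of all genes, 42.9% to 51.7% lay further from 0 than Cdkn1a and 17.7% to 36.0% further than Trp53inp1. Phlda3, an inhibitor of the kinase Akt, was low in 25HC3S replicate 1 (-1.16) and in Vehicle replicates 3 and 4 (-1.21 and -1.22) but high in Vehicle replicate 2 (0.39). Mdm2 stood out in Vehicle replicate 2, by 0.56, and differed by at most 0.09 in the other 3 libraries.

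**Figure D1:**
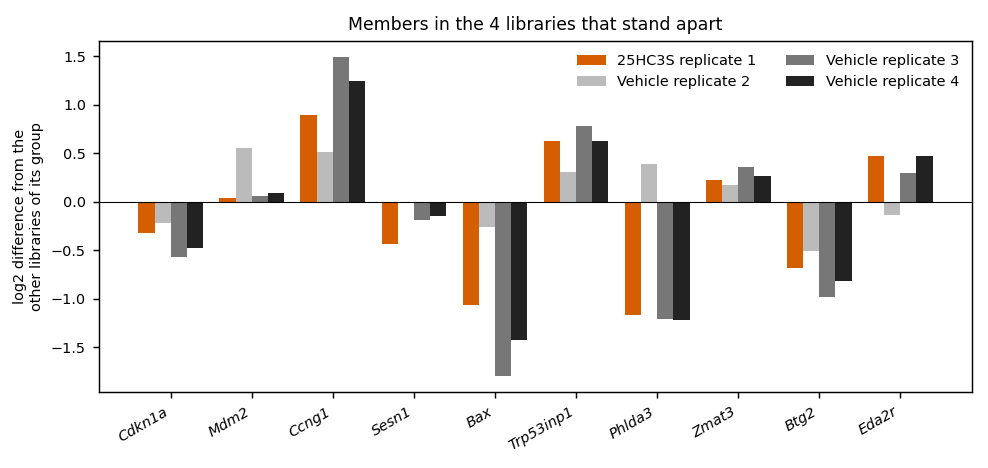
Log2 difference of each gene in the 4 libraries that stand apart from the mean of the remaining libraries of the same group (y axis; genes along the x axis; 1 bar per library, with no error since each is a single library). Ccng1, Trp53inp1, Zmat3 and Mdm2 are above 0 and Cdkn1a, Bax, Btg2 and Sesn1 below 0 in all 4.

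Among the other 16 libraries Ccng1, Phlda3, Cdkn1a and Bax ranged between 48.3 and 91.3 FPKM, Mdm2 between 16.0 and 20.4 FPKM, Eda2r between 2.36 and 3.86 FPKM. Trp53inp1 ranged there between 10.3 and 16.1 FPKM, Btg2 between 8.10 and 11.9, Zmat3 between 6.82 and 9.68, and Sesn1 between 5.61 and 9.62. In those 16 libraries, GW3965 had the highest group mean of 8 genes, all but Sesn1 and Btg2. The share of all genes with their highest mean in GW3965 was not counted. For Cdkn1a, Bax and Phlda3 the order of means was 25HC3S, Vehicle, 25HC and GW3965 from low to high. Only the step between 25HC and GW3965 passed the test for Cdkn1a and Phlda3, and no step between neighbours did for Bax. Sesn1 ran 25HC3S, 25HC, GW3965, Vehicle, with only the first step called, and Btg2 ran 25HC, Vehicle, GW3965, 25HC3S, with only the last step called.

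**Figure D2:**
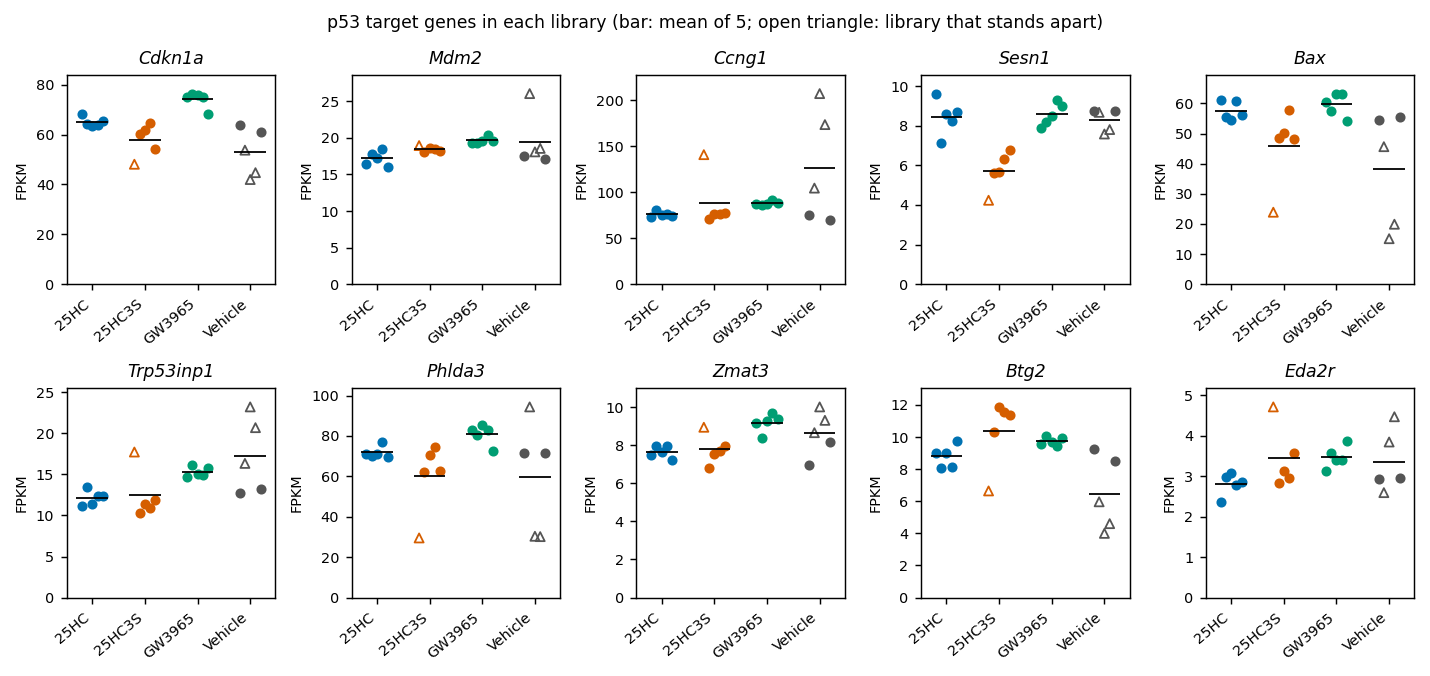
FPKM of the 10 genes in each library (y axis, linear, from 0; groups along the x axis in the order 25HC, 25HC3S, GW3965, Vehicle). Each point is 1 library, open triangles are the 4 libraries that stand apart, and the bar is the group mean. The Vehicle points of Ccng1 spread from 70.3 to 207 FPKM, while the GW3965 points lie between 85.9 and 91.3 FPKM.

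The comparison of GW3965 with Vehicle asks what an LXR agonist did to these genes. With all libraries, Cdkn1a and Btg2 rose with GW3965, and the other 8 genes were not called. Of all genes tested, 6.46% were called. Cdkn1a, the inhibitor of cyclin-dependent kinases that carries out the p53 arrest, had 75.0, 76.4, 76.0, 75.2 and 68.3 FPKM in GW3965, against 64.0, 53.7, 42.0, 44.7 and 61.2 FPKM in Vehicle. The groups do not overlap, and the lowest Vehicle values are those of replicates 2, 3 and 4. How many of all genes have groups that do not overlap was not counted, in this comparison or the others. Its log2 difference was 0.49 ± 0.10 (SE, n = 5 each; limma adjusted p = 0.00617). It was 0.24 ± 0.06 when the 4 libraries were left out (limma adjusted p = 0.0156). In the fit of only these 2 groups it was not called (limma adjusted p = 0.105).

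Btg2, which slows proliferation and helps to shorten the poly(A) tails of mRNAs, had 9.60, 10.1, 9.67, 9.47 and 9.96 FPKM in GW3965, against 9.25, 5.97, 4.00, 4.61 and 8.51 FPKM in Vehicle. The groups do not overlap, but Vehicle replicates 1 and 5 come close to GW3965. The difference was 0.58 ± 0.17 (limma adjusted p = 0.0453), and without the 4 libraries it was 0.12 ± 0.06, with the call lost (limma adjusted p = 0.309).

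When the 4 libraries were left out, 5 of the 10 genes were higher in GW3965 than in Vehicle and 0 were lower, where 7.77% of all genes were called and 3.98% were called as higher. They were Cdkn1a, Mdm2, Ccng1, Trp53inp1 and Zmat3. Ccng1 had 87.3, 85.9, 87.0, 91.3 and 88.3 FPKM in GW3965, against 75.3 and 70.3 FPKM in Vehicle replicates 1 and 5, with a difference of 0.27 ± 0.04 (limma adjusted p = 0.000846). All 5 GW3965 libraries lie above both. With all libraries the same difference was -0.38 ± 0.24, since Vehicle replicates 2, 3 and 4 are above GW3965. Trp53inp1, which binds p53 and helps it towards its death targets, also turned its sign, with 0.22 ± 0.06 without the 4 libraries and -0.13 ± 0.14 with them. It had 14.7 to 16.1 FPKM in GW3965, against 12.8, 16.3, 23.2, 20.7 and 13.3 FPKM in Vehicle, where replicates 2, 3 and 4 are the highest. Mdm2 had 19.3 to 20.4 FPKM in GW3965, against 17.5, 26.0, 18.1, 18.6 and 17.1 FPKM in Vehicle, and differed by 0.17 ± 0.05 without the 4 (limma adjusted p = 0.0301) and by 0.03 ± 0.08 with all. Only Vehicle replicate 2 lies above GW3965. Zmat3, an RNA-binding zinc finger protein, had 8.36 to 9.68 FPKM in GW3965, against 6.98, 8.66, 10.0, 9.30 and 8.18 FPKM in Vehicle, and differed by 0.25 ± 0.06 without the 4 (limma adjusted p = 0.0257) and by 0.09 ± 0.08 with all. Vehicle replicates 1 and 5 are the lowest of its 5 and lie below every GW3965 library.

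The comparison of GW3965 with 25HC holds none of the 4 libraries in its own groups. Both compounds are known to reach LXR, here at different doses. All 10 genes had higher means in GW3965, by 0.02 to 0.31, with a median of 0.19 on the log2 scale against 0.01 over all genes tested. With the spread estimated over all 20 libraries limma called 0 of the 10, where 1.74% of all genes were called. At an unadjusted p under 0.05 there were 3 of the 10, against 7.50% of all genes. With only the 10 libraries of these 2 groups in the fit, 7 were higher, where 11.2% of all genes were called. The same 7 were higher in the fit without the 4 libraries, where 13.1% of all genes were called and 6.3% were called as higher. The differences are the same numbers in each fit and only their errors change.

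The largest of these differences was that of Trp53inp1, which had 14.7, 16.1, 15.0, 14.9 and 15.7 FPKM in GW3965, against 11.2, 13.5, 11.4, 12.4 and 12.3 FPKM in 25HC. The lowest GW3965 library lies above the highest 25HC library. Its difference was 0.31 ± 0.05 in the fit without the 4 libraries (limma adjusted p = 0.000327) and 0.31 ± 0.14 with all (limma adjusted p = 0.621). Ccng1 had 85.9 to 91.3 FPKM in GW3965, against 73.2, 80.3, 75.5, 76.6 and 74.1 FPKM in 25HC, with a difference of 0.21 ± 0.03 (limma adjusted p = 0.000401). These groups do not overlap.

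Mdm2, the ligase that degrades p53, had 19.3, 19.3, 19.6, 20.4 and 19.6 FPKM in GW3965, against 16.4, 17.8, 17.2, 18.5 and 16.0 FPKM in 25HC. All GW3965 libraries were above all 25HC libraries, and the difference was 0.18 ± 0.03 (limma adjusted p = 0.0018 without the 4 libraries). Cdkn1a had 68.3 to 76.4 FPKM in GW3965, against 68.2, 64.1, 63.6, 63.7 and 65.5 FPKM in 25HC, a difference of 0.19 ± 0.04 (limma adjusted p = 0.00875). Here GW3965 replicate 5 and 25HC replicate 1 all but meet.

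Zmat3 had 9.15, 8.36, 9.27, 9.68 and 9.36 FPKM in GW3965, against 7.50, 7.93, 7.66, 7.95 and 7.24 FPKM in 25HC, a difference of 0.23 ± 0.05 (limma adjusted p = 0.00428). Eda2r, a death receptor of the TNF receptor family, had 3.13, 3.56, 3.40, 3.39 and 3.86 FPKM in GW3965, against 2.36, 2.97, 3.06, 2.79 and 2.87 FPKM in 25HC. Neither gene's groups overlap, and Eda2r differed by 0.23 ± 0.06 (limma adjusted p = 0.019). The share of all genes whose groups do not overlap was not counted here either. In the fit without the 4 libraries 8 of the 10 had an unadjusted limma p under 0.05, against 24.8% of all genes. Phlda3 had 82.8, 80.7, 85.2, 82.9 and 72.3 FPKM in GW3965, against 70.9, 70.3, 71.1, 77.0 and 69.7 FPKM in 25HC. GW3965 replicate 5 falls within the range of 25HC, and the difference of 0.17 ± 0.05 was near the threshold (limma adjusted p = 0.0498).

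For 3 genes no difference between GW3965 and 25HC passed the test in these fits. In the fit without the 4 libraries Btg2 differed by 0.14, with a 95% interval of 0.03 to 0.24, and a limma adjusted p of 0.0763. Bax differed by 0.05 (interval -0.06 to 0.17) and Sesn1 by 0.02 (interval -0.12 to 0.16).

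**Figure D3:**
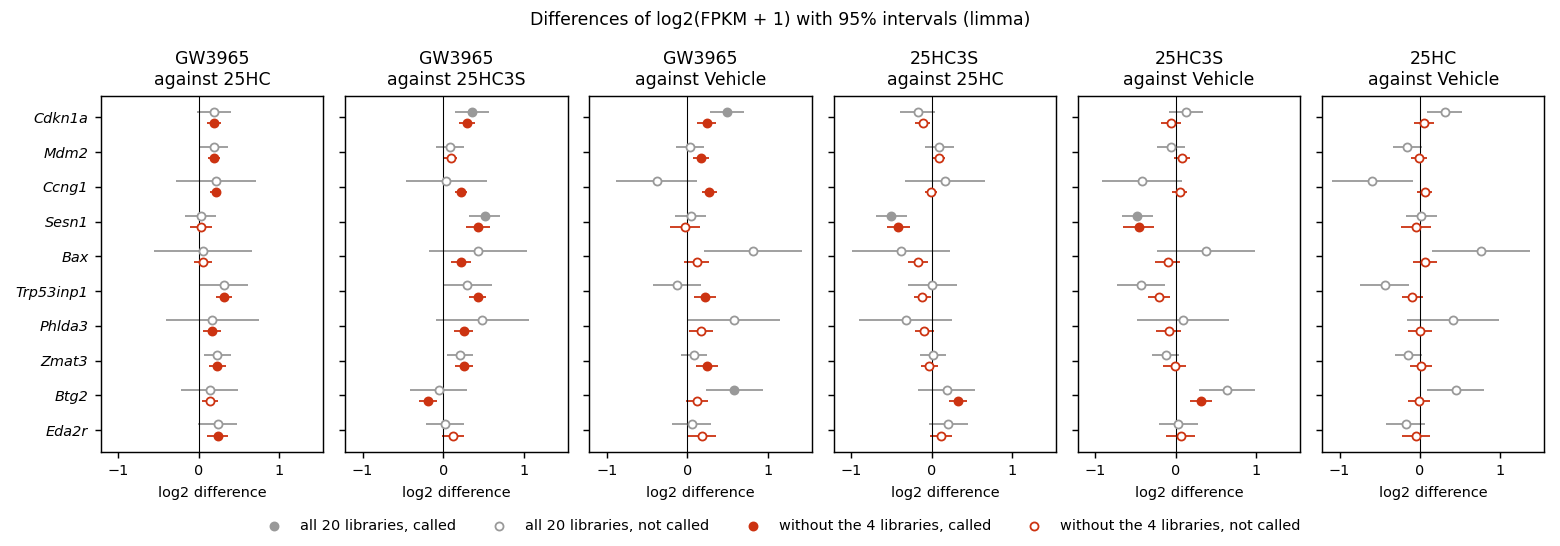
Log2 differences of the 10 genes with 95% intervals, by comparison, with all 20 libraries and without the 4 that stand apart (x axis, log2(FPKM + 1) scale; genes down the y axis). Intervals narrow without the 4 libraries, Sesn1 stays below 0 in both comparisons of 25HC3S with a lower limit of -0.69 against 25HC, and Ccng1 lies on opposite sides of 0 in the 2 fits of GW3965 against Vehicle.

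The sulfate and the free oxysterol, given at the same dose, differ by the sulfate group on the 3 position, and they are the only such pair in the series. Sesn1 was lower with 25HC3S than with 25HC, and Btg2 was higher without the 4 libraries. Sesn1 encodes sestrin 1, which restrains the growth kinase mTORC1 and the build-up of oxidants. It had 4.24, 5.61, 5.69, 6.32 and 6.76 FPKM in 25HC3S, against 9.62, 7.15, 8.60, 8.22 and 8.68 FPKM in 25HC. No 25HC3S library reaches the lowest 25HC library. The difference was -0.50 ± 0.09 (95% interval -0.69 to -0.31; limma adjusted p = 0.00803), and without the 4 libraries -0.41 ± 0.07 (limma adjusted p = 0.00152). Sesn1 was the only one of the 10 genes called with all libraries, where 0.816% of all genes were called.

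With the 4 libraries left out, 2 of the 10 genes were called between 25HC3S and 25HC, Sesn1 and Btg2, where 7.18% of all genes were called. Btg2 had 10.3, 11.9, 11.6 and 11.4 FPKM in 25HC3S replicates 2 to 5, and 6.65 FPKM in replicate 1, against 9.04, 8.10, 8.98, 8.14 and 9.74 FPKM in 25HC. Replicates 2 to 5 lie above every 25HC library and replicate 1 below. The difference was 0.33 ± 0.05 without the 4 libraries (limma adjusted p = 0.000944) and 0.19 ± 0.17 with them (limma adjusted p = 0.834). For the other 8 genes no difference passed in either fit. Their intervals in the fit without the 4 libraries ran from -0.29 at the lowest limit (Bax) to 0.25 at the highest (Eda2r), and Cdkn1a differed by -0.11 (interval -0.21 to -0.01).

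Markers of macrophages were called in every comparison but 25HC against Vehicle. Their 7 genes summed to 171 to 262 FPKM in 25HC3S, against 297 to 418 FPKM in 25HC, 343 to 423 FPKM in GW3965 and 232 to 416 FPKM in Vehicle. Of the 7, Mrc1 and Adgre1 were lower in 25HC3S than in 25HC with all libraries, by log2 differences of -1.52 and -0.67. Without the 4, 6 of 7 were lower. Of all genes, 0.659% and 4.7% were lower in these fits. Against Vehicle, 2 of 7 were lower in 25HC3S with all libraries and 5 without the 4 (1.14% and 2.63% of all genes). Higher in GW3965 than in 25HC3S were 3 with all libraries and 6 without the 4 (2.51% and 9.27%). In GW3965, 2 were lower than in Vehicle with all libraries and 1 without the 4 (2.97% and 3.79%). Compared with 25HC, 1 was lower in GW3965 in both fits (0.894% and 6.82%). Markers of chondrocytes, 8 genes, had no calls with all libraries but some without the 4. Of these 8, 2 were lower in 25HC3S than in 25HC (4.7% of all genes). In GW3965, 1 was higher and 3 lower than in 25HC (6.3% and 6.82%). Against GW3965's other partners, 1 was higher than in Vehicle and 3 higher than in 25HC3S (3.98% and 9.27%). Markers of synovium and fibroblasts, 5 genes, likewise had calls only without the 4. Of these 5, 1 was higher and 1 lower in 25HC3S than in 25HC (2.49% and 4.7%). Against Vehicle, 1 was higher in 25HC3S (1.33%). In GW3965, 1 was higher than in 25HC (6.3%), and 1 was higher and 1 lower than in 25HC3S (9.27% and 8.59%). The part of these cell types in the Sesn1 and Btg2 differences, or in those of GW3965 against 25HC or Vehicle, was not tested.

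Against Vehicle, 25HC3S again had less Sesn1, which had 8.74, 8.68, 7.58, 7.81 and 8.76 FPKM in Vehicle. Every 25HC3S library, at 6.76 FPKM or less, was below every Vehicle library. The difference was -0.48 ± 0.09 (limma adjusted p = 0.00926), and 1.61% of all genes were called. Leaving out the 4 libraries gave -0.46 ± 0.09 (limma adjusted p = 0.00732). Btg2 was then higher by 0.31 ± 0.07 (limma adjusted p = 0.0133), and 3.95% of all genes were called. These 2 were the only genes of the 10 called there. In the fit of only these 2 groups Sesn1 was not called (limma adjusted p = 0.264).

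GW3965 had more Sesn1 than 25HC3S, at 7.90, 8.19, 8.47, 9.28 and 8.99 FPKM. All of these lie above the highest 25HC3S library. The difference was 0.52 ± 0.09 (limma adjusted p = 0.00117). Cdkn1a was the other gene called with all libraries, of 10, where 4.63% of all genes were called: it had 68.3 to 76.4 FPKM in GW3965, against 48.1, 60.2, 61.7, 64.8 and 54.2 FPKM in 25HC3S. The groups do not overlap, and the difference was 0.36 ± 0.10, near the threshold (limma adjusted p = 0.0485). The 3 comparisons that hold Sesn1's calls share their 25HC3S libraries, so they are not independent.

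In the fit without the 4 libraries, 7 genes were higher in GW3965 than in 25HC3S and Btg2 was lower, where 17.9% of all genes were called and 9.27% were called as higher. The 7 were Trp53inp1 (0.43 ± 0.05), Sesn1 (0.43 ± 0.07), Cdkn1a (0.30 ± 0.05), Zmat3 (0.26 ± 0.05), Phlda3 (0.26 ± 0.06), Ccng1 (0.22 ± 0.03) and Bax (0.22 ± 0.06), as log2 differences with SE. Trp53inp1 had 14.7 to 16.1 FPKM in GW3965, against 17.7, 10.3, 11.4, 11.0 and 11.8 FPKM in 25HC3S. Ccng1 had 85.9 to 91.3 FPKM in GW3965, against 141, 71.0, 76.3, 76.3 and 77.9 FPKM in 25HC3S. In both genes 25HC3S replicate 1 lies above GW3965 and the other 4 lie below. With all libraries Ccng1 differed by 0.04 ± 0.24 and Trp53inp1 by 0.30 ± 0.14, and neither was called. Bax had 60.5, 57.6, 63.3, 63.2 and 54.1 FPKM in GW3965, against 23.9, 48.6, 50.3, 57.9 and 48.3 FPKM in 25HC3S, where replicates 4 and 1 are the ends of the range. Btg2 differed by -0.19 ± 0.05 (limma adjusted p = 0.0161). Mdm2 and Eda2r were not called, at 0.09 ± 0.04 and 0.12 ± 0.06.

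Between 25HC and Vehicle limma called 0 of the 10 genes with all libraries, where 0.0392% of all genes were called. At an unadjusted p under 0.05 there were 5 of the 10, against 30.3% of all genes. It called 0 again without the 4 libraries, where 0.0235% of all genes were called, and 0 had an unadjusted p under 0.05, against 5.65% of all genes. In that fit the differences ran from -0.09 (Trp53inp1) to 0.06 (Bax). With all libraries they ran from -0.59 ± 0.24 (Ccng1) to 0.76 ± 0.29 (Bax). Leaving out Vehicle replicate 1 gave 6 calls and leaving out Vehicle replicate 5 gave 5, where 2659 and 2085 of all 12752 genes were called. Cdkn1a, Bax and Btg2 were higher and Ccng1 and Trp53inp1 lower in both. Vehicle then holds 3 of the 4 libraries among its remaining 4.

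The genes that control p53 were counted on a list of 21, of which 20 were tested. With all libraries Chek1 and Atm, which encode kinases that signal DNA damage, were lower in GW3965 than in Vehicle, and the other 18 were not called, where 6.46% of all genes were called. Chek1 differed by -0.50 ± 0.10 and Atm by -0.70 ± 0.20, and the call of Atm was lost without the 4 libraries. Chek1 was lower in that fit too, by -0.54 ± 0.09 against Vehicle and by -0.33 ± 0.07 against 25HC. In that fit 1 of the 20 was higher and 2 lower against Vehicle, and 1 higher and 3 lower against 25HC, where 7.77% and 13.1% of all genes were called. Against 25HC3S, GW3965 had 1 lower regulator with all libraries, Chek1, and 1 higher and 6 lower without the 4, where 4.63% and 17.9% of all genes were called. Between GW3965 and 25HC limma called 0 with all libraries, with 2 of the 20 at an unadjusted p under 0.05 (7.50% of all genes). The comparisons without GW3965 had 0 calls by limma with all libraries, with 11 of the 20 at an unadjusted p under 0.05 in 25HC against Vehicle (30.3% of all genes), 3 in 25HC3S against Vehicle (17.1%) and 0 in 25HC3S against 25HC (7.12%). Without the 4 libraries Hipk2, a kinase that phosphorylates p53, and Atm were higher in 25HC3S than in 25HC, by 0.18 ± 0.04 and 0.19 ± 0.05, where 7.18% of all genes were called. The comparisons of 25HC and 25HC3S with Vehicle again had 0 calls by limma in that fit, with 2 and 4 of the 20 at an unadjusted p under 0.05 (5.65% and 17.6% of all genes).

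Trp53, which encodes p53, had 22.7, 22.0, 23.4, 20.7 and 20.5 FPKM in GW3965, against 25.2, 24.8, 24.6, 22.2 and 25.1 FPKM in 25HC. It was lower in GW3965 without the 4 libraries, by -0.15 ± 0.05 (limma adjusted p = 0.0368). Against Vehicle it differed by -0.23 ± 0.06 without the 4 libraries but by 0.28 ± 0.17 with them, as Vehicle replicates 2, 3 and 4 had 15.7, 14.3 and 12.0 FPKM. No Vehicle library of these 3 reaches the range of GW3965. Cdkn2a was the one regulator called higher in GW3965 against 25HC or Vehicle without the 4: its locus encodes both an Mdm2 inhibitor and a cyclin-dependent kinase inhibitor, which a value per gene cannot tell apart. It had 20.3, 18.2, 19.7, 19.8 and 18.7 FPKM in GW3965, against 11.9, 15.1, 16.1, 14.4 and 13.9 FPKM in 25HC, a difference of 0.42 ± 0.06 (limma adjusted p = 0.000398).

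A second list held 45 further p53 target genes, of which 43 were tested. With all libraries 7 of them were higher and 0 lower in GW3965 than in Vehicle, where 3.49% of all genes were higher and 2.97% lower, and the median difference of the list was 0.19 against 0.02 over all genes. The 5 with the smallest p include Tnfrsf10b (0.60 ± 0.12), a receptor for the death ligand TRAIL, and Ephx1 (0.65 ± 0.13), an epoxide hydrolase. The others are Sesn2 (0.30 ± 0.07), another sestrin, Gdf15 (1.56 ± 0.37), a secreted stress hormone, and Aen (0.57 ± 0.15), a nuclease. Gdf15 is listed at 0 in 1 of the Vehicle libraries. When the 4 libraries were left out, 7 were higher and 2 lower against Vehicle (3.98% and 3.79% of all genes), and Gdf15 differed by 0.57 ± 0.09.

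Between GW3965 and 25HC, 1 of the 43 was called with all libraries, Polk, a DNA polymerase that copies past damage, by 0.28 ± 0.06, where 1.74% of all genes were called. With the 4 libraries left out, 8 were higher and 2 lower (6.3% and 6.82% of all genes), with a median of 0.10 against 0.01 over all genes. The 5 with the smallest p were Ephx1 (0.24 ± 0.03), Polk (0.28 ± 0.04), Pltp (0.29 ± 0.05), Tnfrsf10b (0.20 ± 0.04) and Aen (0.21 ± 0.05). Pltp, a phospholipid transfer protein, is also a known LXR target. Between 25HC3S and 25HC, 0 of the 43 were called by limma with all libraries, with 3 at an unadjusted p under 0.05 (7.12% of all genes). In the fit without the 4 libraries Pidd1, a scaffold of p53-induced death signalling, and Xpc, a DNA damage sensor, were higher in 25HC3S, and Pltp and Ephx1 were lower, where 7.18% of all genes were called. Between GW3965 and 25HC3S 1 was lower with all libraries, Pml, which forms nuclear bodies, and 11 were higher and 4 lower without the 4, where 17.9% of all genes were called. In 25HC and in 25HC3S against Vehicle limma called 0 in both fits, with 14 and 5 of the 43 at an unadjusted p under 0.05 with all libraries, against 30.3% and 17.1% of all genes. Without the 4 there were 5 and 11, against 5.65% and 17.6%.

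A further list held 25 cell cycle genes that p53 is known to repress through p21 and the DREAM complex, and all 25 were tested. In GW3965, 15 of them were lower than in Vehicle, 10 lower than in 25HC and 18 lower than in 25HC3S with all libraries, and 0 were higher. Of all genes, 2.97%, 0.894% and 2.13% were lower in these comparisons. The list medians were -0.40, -0.50 and -0.71, against 0.02, 0.01 and 0.00 over all genes. Mcm5, a subunit of the replication helicase, had 12.2, 11.7, 13.9, 13.0 and 10.4 FPKM in GW3965, against 21.3, 17.6, 20.7, 20.0 and 19.7 FPKM in 25HC. The groups are far apart, with a difference of -0.66 ± 0.08 (limma adjusted p = 4.3e-05), and -0.66 ± 0.06 without the 4 libraries. The next by p were Ccna2 (-0.67 ± 0.11), Foxm1 (-0.46 ± 0.08), Bub1b (-0.59 ± 0.11) and Birc5 (-0.75 ± 0.15), which drive or check mitosis.

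Leaving out the 4 libraries, 22 of the 25 were lower in GW3965 than in Vehicle, 25 lower than in 25HC and 25 lower than in 25HC3S, where 3.79%, 6.82% and 8.59% of all genes were lower. These comparisons share the GW3965 libraries. Between 25HC and Vehicle limma called 0 of the 25 in both fits, with 8 at an unadjusted p under 0.05 with all libraries (30.3% of all genes) and 0 without the 4 (5.65%). Between 25HC3S and 25HC 5 were higher without the 4 libraries, where 2.49% of all genes were higher, with a median of 0.18 against 0.01 over all genes, Rrm2 first among them by 0.31 ± 0.04. With all libraries limma called 0, with 4 at an unadjusted p under 0.05 (7.12% of all genes). Between 25HC3S and Vehicle it called 0 with all libraries, with 8 at an unadjusted p under 0.05 (17.1% of all genes). Without the 4 it called 1 of the 25 as higher, Rrm2, where 1.33% of all genes were higher. At an unadjusted p under 0.05 there were then 11, against 17.6% of all genes. All 25 differences were above 0 in that fit, with a median of 0.18 against 0.01 over all genes.

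**Figure D4:**
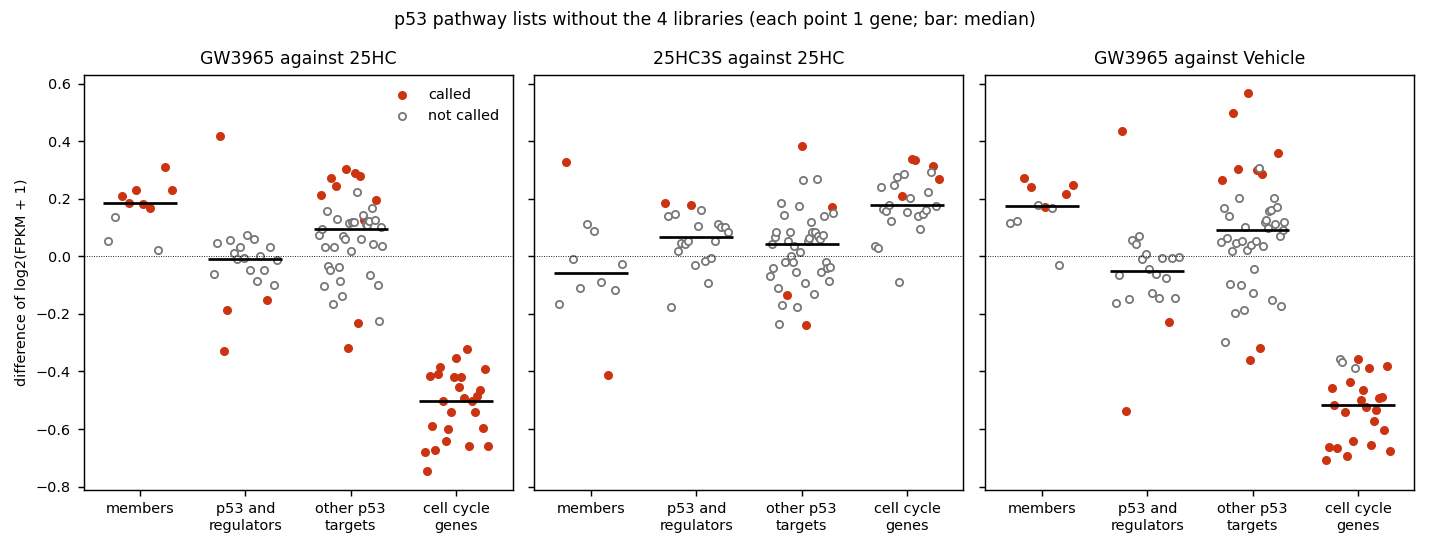
Log2 differences of every tested gene of the 10 p53 targets and of the 3 further lists, by comparison (y axis, log2(FPKM + 1) scale; 1 point per gene, bars are medians; fit without the 4 libraries that stand apart). In GW3965 against 25HC the 25 cell cycle genes lie between -0.75 and -0.32, and the 10 target genes between 0.02 and 0.31.

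How the 10 genes varied with each other differed between the 16 libraries outside the 4 and all 20. Over those 16, which come from the same 4 groups and share the scaling of each library, Pearson's r of log2(FPKM + 1) was 0.89 for Cdkn1a with Phlda3, 0.87 for Ccng1 with Zmat3 and 0.86 for Bax with Phlda3. Btg2 and Sesn1 were the least alike, at -0.61. Over all 20 libraries r of Ccng1 with Bax was -0.93, against 0.47 over the 16, and r of Cdkn1a with Ccng1 was -0.74, against 0.73. The direction of both pairs thus differs with the 4 libraries. Btg2 with Bax turned the other way, at 0.83 over all 20 and -0.45 over the 16, and Btg2 with Cdkn1a was at 0.75 and -0.18.

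**Figure D5:**
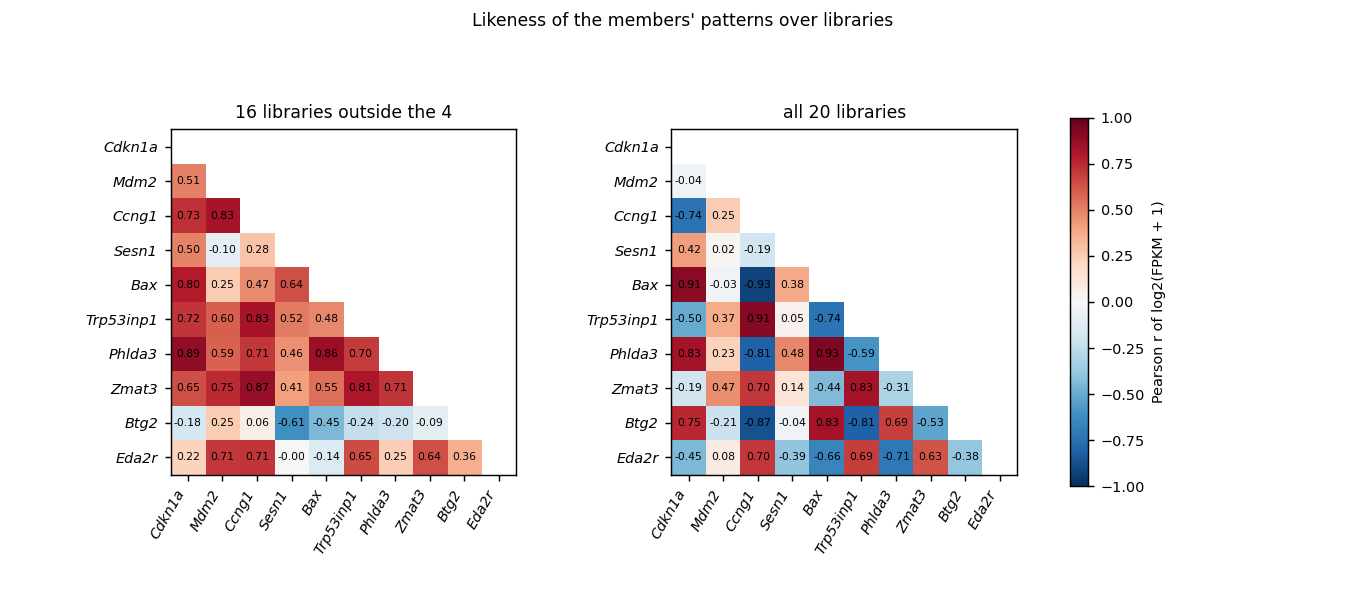
Pearson's r of log2(FPKM + 1) between each pair of the 10 genes, over the 16 libraries outside the 4 (left) and all 20 libraries (right), with colour from -1 to 1. Cdkn1a and Ccng1 are at 0.73 on the left and -0.74 on the right.

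Over all 20 libraries the genes most like Cdkn1a were Dnajb2 (r = 0.98), Ephx1 (r = 0.97) and Ptp4a3 (r = 0.96), of which the last pair are on the list of further p53 targets. Those most like Mdm2 were Nars (r = 0.91), Arhgef2 (r = 0.89) and Trim35 (r = 0.86). Those most like Sesn1 were Arhgap19 (r = 0.92), Tmsb4x (r = 0.88) and Lgals9 (r = 0.88). Over the 16 libraries Dnajb2 with Cdkn1a was at 0.95, Nars with Mdm2 at 0.84 and Arhgap19 with Sesn1 at 0.93. These r values are descriptions over libraries of 4 groups, picked as the highest of 12752 genes.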

How the data were processed

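The authors deposited 1 table of FPKM values for 54532 genes in 20 libraries, with gene coordinates and lengths. The tools named are CASAVA 1.8 and HISAT2 2.0.5, per the submitters' processing notes; no counting program, strand setting or genome build is stated in the labels or the table. Of the gene identifiers, 99.93% are in GENCODE M21, 98.33% of those with the same coordinates (GRCm38). FPKM times gene length gave whole fragments within 0.02 for at least 99.7% of values, which gave the depth. Such fragments come from PCR, so depth describes counting error only.

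Values were tested as log2(FPKM + 1) with limma 3.58.1 in R 4.3.3, with 1 mean per group, a spread shared by all groups and its trend with level. A difference on this scale understates changes of low genes. The fit was tested on simulated data. Alternatives were a pseudocount of 0.1, no filter, median-ratio scaling, library weights, only the 2 groups compared, a replicate block, each library left out, and, added after seeing the data, the 4 libraries that stand apart left out. The members and the gene lists were chosen with earlier results of these data known, so they are not independent of them. All 10 members are named; of each other list, up to 5 called genes with the smallest p, and the 3 genes with the highest r to Cdkn1a, Mdm2 and Sesn1. Other genes were named after their values were seen. Promoter windows are from RefSeq, build GRCm38.p6.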

Additional observations from a re-analysis of the deposited data

Results flagged for a closer look

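In 8 of 40 sets of 5 libraries (10 genes in 4 groups), 1 library lay far from the others, by the ratio of its gap to the whole range. Chance gives about 1 in 20 such sets. Of the 8, 4 are of 25HC3S replicate 1, which had 141 FPKM of Ccng1, 23.9 FPKM of Bax, 17.7 FPKM of Trp53inp1 and 29.5 FPKM of Phlda3. The nearest other 25HC3S library had 77.9, 48.3, 11.8 and 62.2 FPKM of these genes. Vehicle replicate 2 had 26.0 FPKM of Mdm2, against 18.6 FPKM in the next Vehicle library. Both libraries are among the 4 that stand apart.

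The other 3 lie in groups without such a library. GW3965 replicate 5 had 68.3 FPKM of Cdkn1a, below the other 4 at 75.0 FPKM or more. GW3965 replicate 4 had 20.4 FPKM of Mdm2, against 19.6 FPKM in the next. In 25HC replicate 4, Phlda3 had 77.0 FPKM, against 71.1 FPKM in the next.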

How the results depend on the processing

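Of the 10 genes, limma called 0 in 25HC against Vehicle, 1 in 25HC3S against Vehicle, 2 in GW3965 against Vehicle, 1 in 25HC3S against 25HC, 0 in GW3965 against 25HC and 2 in GW3965 against 25HC3S. In the same order, library weights gave 0, 3, 2, 2, 6 and 8, only the 2 groups compared gave 0, 0, 0, 1, 7 and 2, and leaving out the 4 libraries gave 0, 2, 5, 2, 7 and 8. Without the filter the last comparison and GW3965 against Vehicle each gave 1; a pseudocount of 0.1 and median-ratio scaling moved no count. Leaving out 1 library gave 0 to 6, 1 to 3, 1 to 3, 1 to 1, 0 to 1 and 1 to 2. The replicate block gave 1 call in GW3965 against Vehicle and 1 in GW3965 against 25HC3S. It kept the calls of Sesn1 as lower in 25HC3S than in Vehicle and in 25HC (limma adjusted p = 0.0235 and 0.0232). Replicate numbers did not pair the libraries (median r of same-numbered deviations -0.01).

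Over all genes the 6 counts were 5, 205, 824, 104, 222 and 591. With 1 library left out they ran from 1 to 2659, 98 to 622, 450 to 3247, 60 to 146, 152 to 304 and 447 to 743. Library weights gave 16, 769, 1230, 1053, 1676 and 2372, only the 2 groups compared 1, 23, 152, 205, 1427 and 1009, the replicate block 1, 151, 544, 82, 191 and 507, and leaving out the 4 libraries 3, 504, 991, 916, 1674 and 2278. In GW3965 against Vehicle, Ccng1 turned from -0.38 to 0.23 with weights and 0.27 without the 4, and Trp53inp1 from -0.13 to 0.18 and 0.22. Leaving out 1 library moved Mdm2 there between -0.012 and 0.13, and Ccng1 in GW3965 against 25HC3S between -0.024 and 0.22. The 3 calls of Sesn1 and that of Cdkn1a against Vehicle held in all 20 fits without 1 library; Cdkn1a against 25HC3S was lost in 14 and Btg2 in 17. Of 35 differences called in neither fit, 17 changed sign somewhere. The causes were not tested. Depth limits Btg2, Eda2r and Sesn1 most, with as few as 164, 220 and 263 fragments in a library, and arms without the 4 libraries hold as few as 2.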
